A study of Mus musculus with 18 samples.

Results

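The 39 genes described here encode proteins of mitosis and chromosome segregation. They were chosen by symbol from the deposited table of normalized values, which held all 39 among its 14011 genes, and their counts were taken from the count table of 37991 genes. RNA came from 18 libraries of 500 sorted CD4+ T cells. The donors were 3 littermate C57BL/6 mice, numbered 84, 86 and 87, which all carried the Id3-GFP and Foxp3-mRFP reporters and received no treatment that the labels name. The labels state neither age nor sex, nor whether a reporter was on 1 or both alleles. Spleen and peripheral lymph nodes of each mouse each gave 3 populations of regulatory T cells (TR). The first was Id3+ CD62L-high CD44-low central TR (Id3+ cTR), the second Id3+ CD62L-low CD44-high effector TR (Id3+ eTR) and the third effector TR without Id3-GFP (Id3- eTR), for which the label states no CD44 or CD62L gate. There were thus 6 groups of 3 libraries, 1 per mouse. Except where mouse is stated as a block, p-values measure the spread between the libraries of a group and leave the pairing by mouse out. The series title concerns a stepwise differentiation of tissue-resident TR marked by Id3.

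Cyclin B bound to Cdk1 drives a cell into mitosis, where condensins compact the chromosomes, kinetochores attach them to spindle microtubules, and motors and Aurora and Polo-like kinases build and correct the spindle. The spindle checkpoint holds the cell until all chromosomes are attached. The anaphase-promoting complex (APC/C) with Cdc20 then marks cyclin B and securin for destruction, and the central spindle guides cytokinesis. Most of these genes are transcribed late in the cell cycle and are near silent in resting T cells. The DREAM complex represses them in quiescence, and B-Myb and FoxM1 activate them through the same promoter element, the cell cycle genes homology region (CHR), often beside CCAAT boxes bound by NF-Y.

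The promoters of 7 genes are printed because these were the members higher in Id3- eTR than in Id3+ cTR in both tissues. The stretches run from 250 bases before to 20 after the RefSeq start site (GRCm38.p6). Capitals mark the CHR core TTTGAA and the CCAAT box on either strand, so that they also appear as TTCAAA and ATTGG. They lie at chr10:69352893-69353162 on the minus strand (Cdk1), chr9:61946780-61947049 on the minus strand (Kif23), chr15:99651637-99651906 on the minus strand (Racgap1), chr7:135716360-135716629 on the minus strand (Mki67), chr11:99024170-99024439 on the minus strand (Top2a), chr8:57511593-57511862 on the plus strand (Hmgb2) and chr5:45669675-45669944 on the plus strand (Ncapg).
Cdk1: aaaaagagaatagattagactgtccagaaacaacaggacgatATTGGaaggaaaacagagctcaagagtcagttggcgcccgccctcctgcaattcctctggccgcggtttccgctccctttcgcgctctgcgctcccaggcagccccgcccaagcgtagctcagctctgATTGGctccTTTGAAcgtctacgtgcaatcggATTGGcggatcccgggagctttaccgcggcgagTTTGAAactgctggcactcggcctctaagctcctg
Kif23: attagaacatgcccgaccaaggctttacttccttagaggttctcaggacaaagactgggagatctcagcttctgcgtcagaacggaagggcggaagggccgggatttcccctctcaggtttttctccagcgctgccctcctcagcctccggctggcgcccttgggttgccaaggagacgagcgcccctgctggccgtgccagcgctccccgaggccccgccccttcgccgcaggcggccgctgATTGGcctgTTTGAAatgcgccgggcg
Racgap1: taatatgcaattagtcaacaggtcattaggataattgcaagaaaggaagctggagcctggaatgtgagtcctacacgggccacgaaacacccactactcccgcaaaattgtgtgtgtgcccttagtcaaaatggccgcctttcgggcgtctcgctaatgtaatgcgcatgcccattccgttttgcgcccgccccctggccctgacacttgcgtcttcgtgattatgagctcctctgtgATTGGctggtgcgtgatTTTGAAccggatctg
Mki67: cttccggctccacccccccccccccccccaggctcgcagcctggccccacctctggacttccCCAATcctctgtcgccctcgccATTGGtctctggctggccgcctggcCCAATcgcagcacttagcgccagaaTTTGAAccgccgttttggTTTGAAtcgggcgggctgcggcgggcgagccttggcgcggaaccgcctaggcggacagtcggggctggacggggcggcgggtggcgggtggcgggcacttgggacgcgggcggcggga
Top2a: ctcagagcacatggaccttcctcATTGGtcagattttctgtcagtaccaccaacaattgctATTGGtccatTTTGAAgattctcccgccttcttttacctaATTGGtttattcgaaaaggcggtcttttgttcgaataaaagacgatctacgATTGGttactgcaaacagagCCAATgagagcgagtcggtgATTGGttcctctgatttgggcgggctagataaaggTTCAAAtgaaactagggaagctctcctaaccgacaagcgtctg
Hmgb2: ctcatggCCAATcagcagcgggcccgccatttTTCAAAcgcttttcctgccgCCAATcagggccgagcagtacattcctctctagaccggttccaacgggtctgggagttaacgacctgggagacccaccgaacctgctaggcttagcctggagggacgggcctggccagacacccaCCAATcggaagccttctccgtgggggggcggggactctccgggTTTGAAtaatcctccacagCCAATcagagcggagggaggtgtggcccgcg
Ncapg: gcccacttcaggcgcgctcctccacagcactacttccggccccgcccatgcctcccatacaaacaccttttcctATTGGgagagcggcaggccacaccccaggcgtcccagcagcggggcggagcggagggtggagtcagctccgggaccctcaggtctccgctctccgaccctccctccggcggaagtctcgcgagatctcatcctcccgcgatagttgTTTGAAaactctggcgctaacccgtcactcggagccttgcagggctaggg

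Of the 39 members, 33 had a promoter in the RefSeq table, which holds 32851 promoters of 250 bases before to 50 after the start site. Aurkb, Ccna2, Dlgap5, Kif20a, Smc4 and Tpx2 did not match. TTTGAA was present in 27 of the 33 members (81.8%), against 17.9% of all promoters. CCAAT was present in 26 of 33 (78.8%), against 37.4%, and both motifs in 23 of 33 (69.7%), against 6.95%. Where the motifs adjoin, their end letters can overlap. Within 50 bases of the start on either side, a window chosen after the positions were seen, 24 of 33 members (72.7%) held TTTGAA, against 4.94% of promoters. All 7 printed promoters held both motifs. In Kif23 and Racgap1 the CCAAT box began 7 and 12 bases before the start (positions -7 and -12) and TTTGAA began at positions 3 and 6 after it. In Mki67, by contrast, the TTTGAA copies began at positions -116 and -98. Birc5, Melk and Nusap1 held neither motif in this window. A match to these letters is not evidence of binding.

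**Figure D1:**
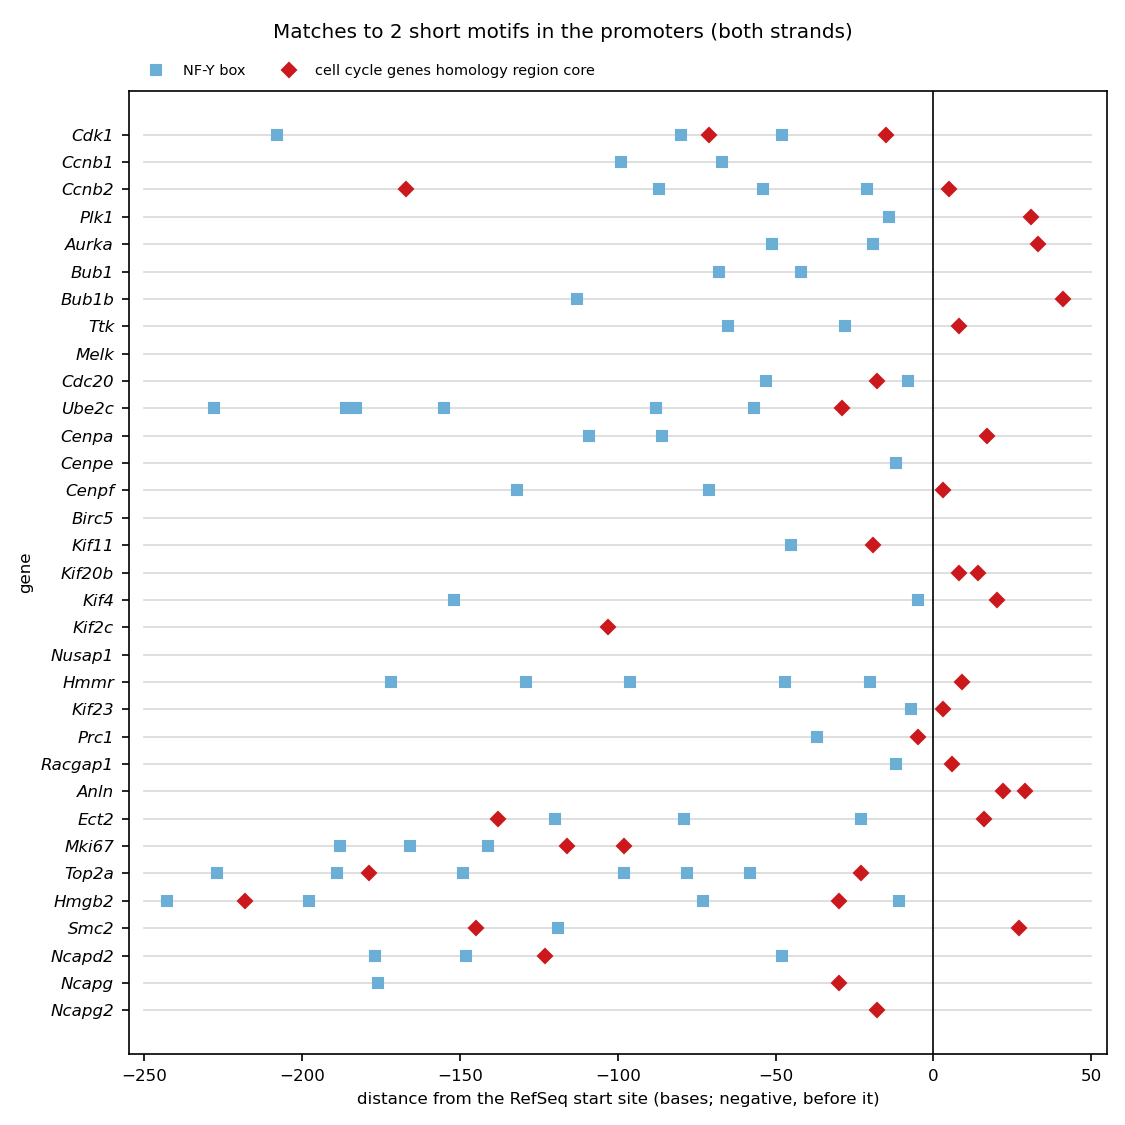
Positions of 2 motifs in the promoters of the 33 members with a RefSeq entry, in bases from the start site (x axis), with 1 gene per line and 1 promoter per gene (y axis). Squares mark the NF-Y box CCAAT and diamonds the CHR core TTTGAA, which lies within 50 bases of the start in 24 of the 33 members.

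Library totals ran from 1600782 to 3153325 counts, and the members together took 0.115% to 0.286% of them. Levels are given as counts per 1000000 (CPM) of the library's TMM-scaled total, and the 3 values of a group are always those of mice 84, 86 and 87 in this order. Id3 itself was at 204 to 306 CPM in the 4 Id3+ groups and at 45.3 to 83.7 CPM in the Id3- groups, and the summed level of 8 TR-defining genes, Foxp3 among them, was 3060.0 to 4359.8 CPM in all 18 libraries. Differences come from an edgeR quasi-likelihood model over all 18 libraries. A gene is called where its Benjamini-Hochberg adjusted p over 12445 tested genes was under 0.05, and all adjusted p-values below are of this kind. The model tested 38 members, and Ttk failed its filter on low counts. Since cells were pooled, a smaller share of dividing cells and less message per cell cannot be told apart.

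Lymph node Id3- eTR held the highest mean level of 37 of the 39 genes. Among all tested genes, 18.5% had their highest mean there. The exceptions were Kif20b, a kinesin of the late spindle, which was highest in spleen Id3- eTR, and Smc4, which was highest in spleen Id3+ cTR. Some of the 37 means were set mainly by 1 library. In lymph node Id3- eTR, Ect2 was at 37.3, 0 and 3.21 CPM and Ncapg2 at 32.6, 2.19 and 5.35 CPM. At least 1 count was found for 23 to 26 members in each spleen Id3+ cTR library and for 38 or 39 in each lymph node Id3- eTR library. Detection depends on depth, and spleen Id3+ cTR of mice 84 and 87 had the lowest totals, 1600782 and 1684461 counts. Over all genes, 13701 to 14164 were detected in the spleen Id3+ cTR libraries and 14587 to 14689 in the lymph node Id3- eTR libraries. Kif4, Bub1, Kif2c, Nusap1 and Hmmr had 0 counts in all 3 spleen Id3+ cTR libraries. A count of 0 in a group is treated below as at most 3 counts over the group, which covers counting error only.

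**Figure D2:**
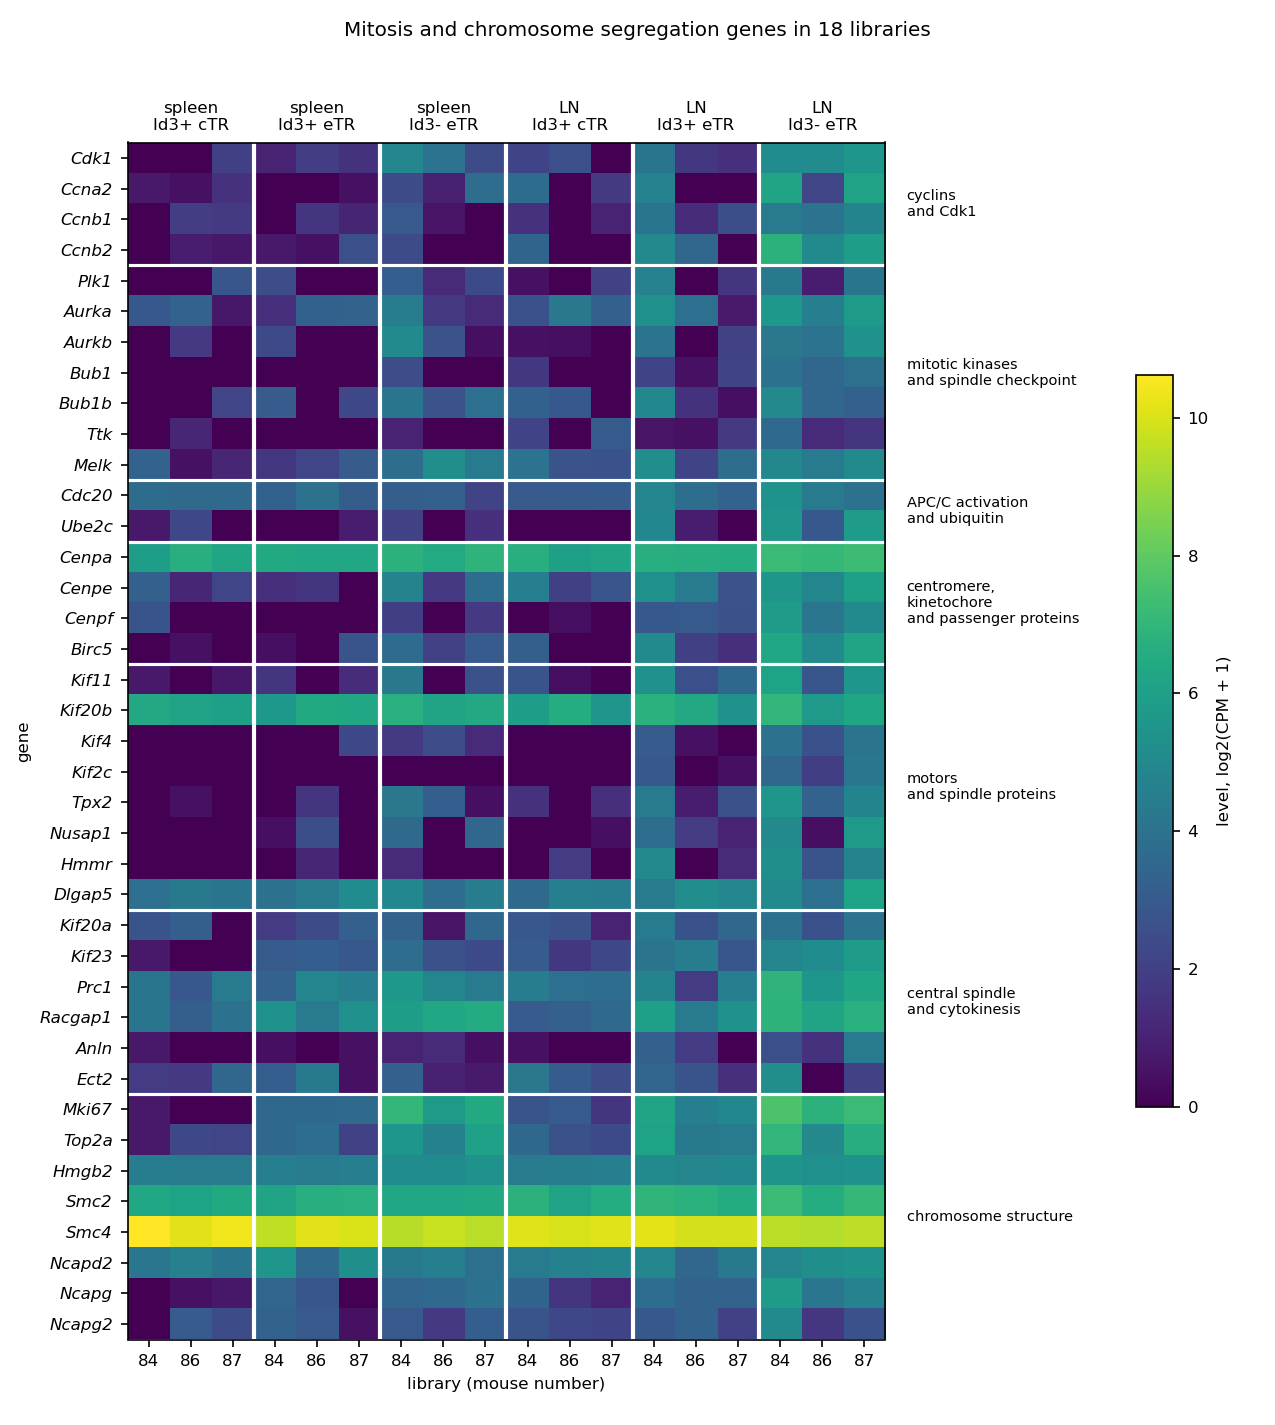
Level of the 39 genes (y axis, grouped by role) as log2(CPM + 1) in the 18 libraries (x axis, mouse number within each tissue and population; LN, lymph node). Most genes are brightest in the 3 lymph node Id3- eTR libraries, while Smc4, Smc2, Cenpa and Kif20b are bright in every library.

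Smc4, the ATPase subunit shared by both condensin complexes, stood apart in level. It made up 75.0% to 81.1% of the summed CPM of the 39 genes in spleen Id3+ cTR and 25.1% to 41.3% in lymph node Id3- eTR. Scaled per kilobase of exon and pooled over the group, its level in spleen Id3+ cTR was 251 CPM, and the next members were Smc2 at 14.3 and Cenpa at 14.2. In lymph node Id3- eTR the pooled levels on the same scale were 140 for Smc4, 43.2 for Ccnb2, 25.2 for Cenpa, 23.0 for Smc2 and 18.1 for Birc5. Smc4 was first in each library, but the order of the next members differed between mice: Ccnb2 was at 72.4, 20.8 and 38.7 CPM per kilobase and Cenpa at 25.9, 23.1 and 26.5. The genes are therefore summed below without Smc4, a choice made after its level was seen.

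Summed over the other 38 genes, spleen Id3+ cTR held 367, 375 and 368 CPM, spleen Id3+ eTR 436, 479 and 500 CPM, and spleen Id3- eTR 962, 620 and 774 CPM. The 3 spleen groups did not overlap. In lymph node the sums were 528, 400 and 372 CPM in Id3+ cTR, 1216, 566 and 524 CPM in Id3+ eTR, then 2166, 996 and 1883 CPM in Id3- eTR. Here Id3- eTR lay above Id3+ cTR in every library, whereas Id3+ eTR overlapped both neighbours. Mouse 84 gave the highest lymph node Id3+ eTR value for 33 of the 39 members, mouse 86 for 4 and mouse 87 for 2. Mouse 84 also led in lymph node Id3+ cTR (21 members), lymph node Id3- eTR (22) and spleen Id3- eTR (23). In spleen Id3+ cTR and Id3+ eTR, mouse 86 led, for 14 and 13 members. No test is given for these sums.

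**Figure D3:**
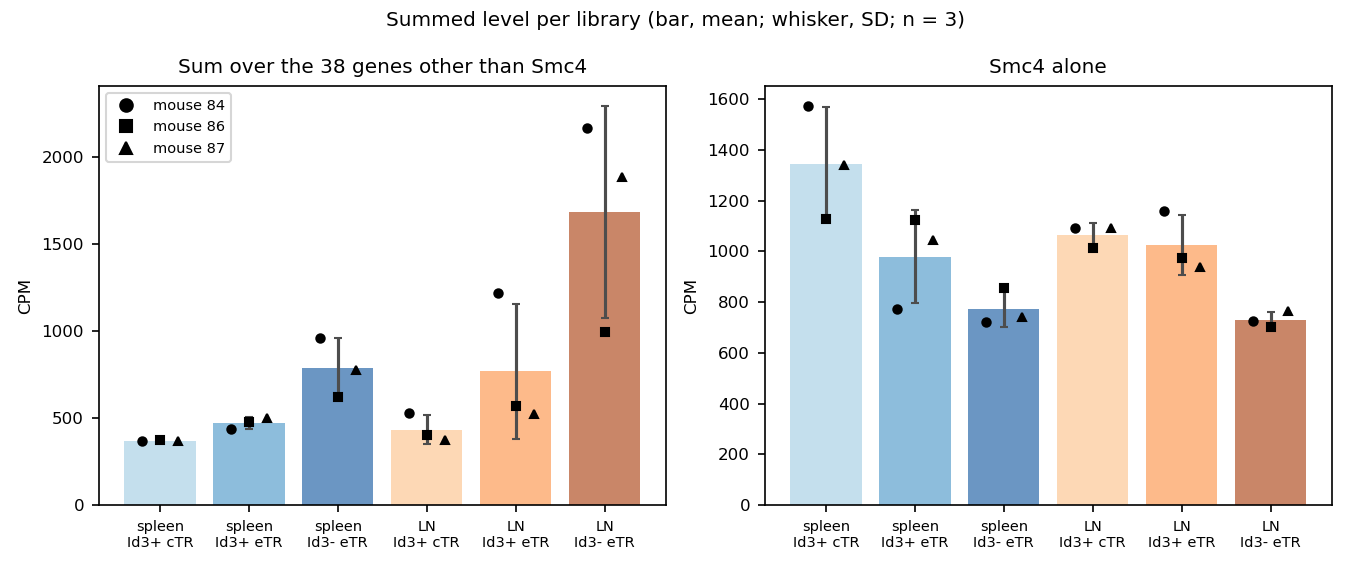
Summed level in CPM of the 38 genes other than Smc4 (left) and of Smc4 alone (right) in the 6 groups (x axis); points are libraries by mouse, bars are means and whiskers are SD (n = 3). The sum is highest in lymph node Id3- eTR, at 996 to 2166 CPM, and the mouse 84 library stands above the others of lymph node Id3+ eTR at 1216 CPM.

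In lymph node, Id3- eTR differed from Id3+ cTR in 21 members, with 20 higher (8.26% of all tested genes were called higher) and Smc4 lower (4.68% lower). The median log2 difference over the 38 tested members was 3.28, beside 0.00 over all tested genes. The groups did not overlap for 28 of 39 members in the higher direction (17.8% of tested genes) and for 1 in the lower (16.1%). Leaving out single libraries of these groups left 7 to 19 members called higher: 7 without Id3+ cTR of mouse 87, 8 without that of mouse 86, 13 without that of mouse 84, and 10 without Id3- eTR of mouse 84 or of mouse 87. The calls of Cenpa, Cenpf, Kif23, Racgap1, Mki67, Top2a, Hmgb2 and Smc4 held under every alternative run. Each other call of this comparison was lost in at least 1 alternative.

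In spleen, the same comparison called 7 members higher (7.17% of tested genes) and again Smc4 lower (5.09%). The median log2 difference over the tested members was 1.58, and groups did not overlap for 12 members in the higher direction (16.4% of tested genes) and 2 in the lower (14.1%). All 7 genes higher in spleen were among the 20 higher in lymph node, and they make up 35% of those. Over all genes, 633 were higher in both tissues, 61.6% of the lymph node calls. Without 3 libraries set apart with earlier results known (spleen Id3+ cTR of mice 84 and 87, which had the lowest totals, and spleen Id3+ eTR of mouse 84), 3 of the 7 were called higher in spleen: Kif23, Racgap1 and Mki67. That leaves 1 library in spleen Id3+ cTR, mouse 86, which is assumed to vary like the other groups. It held 0 counts of Cdk1, and the log2 differences of the other genes no longer called were 4.75 for Ncapg, 3.52 for Top2a and 0.85 for Hmgb2, against 4.91, 3.96 and 0.84 with all libraries. Leaving out single libraries ended the spleen call of Cdk1 for 4 of 6 libraries (Id3+ cTR of mice 84 and 86 and Id3- eTR of mice 84 and 86, adjusted p up to 0.148), of Ncapg without either of 2 Id3+ cTR libraries (0.0625 for mouse 84, 0.0567 for mouse 86) and of Hmgb2 without Id3- eTR of mouse 87 (0.0536). Each comparison of a population within a tissue shares its libraries with 2 others, so their counts are not independent.

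**Figure D4:**
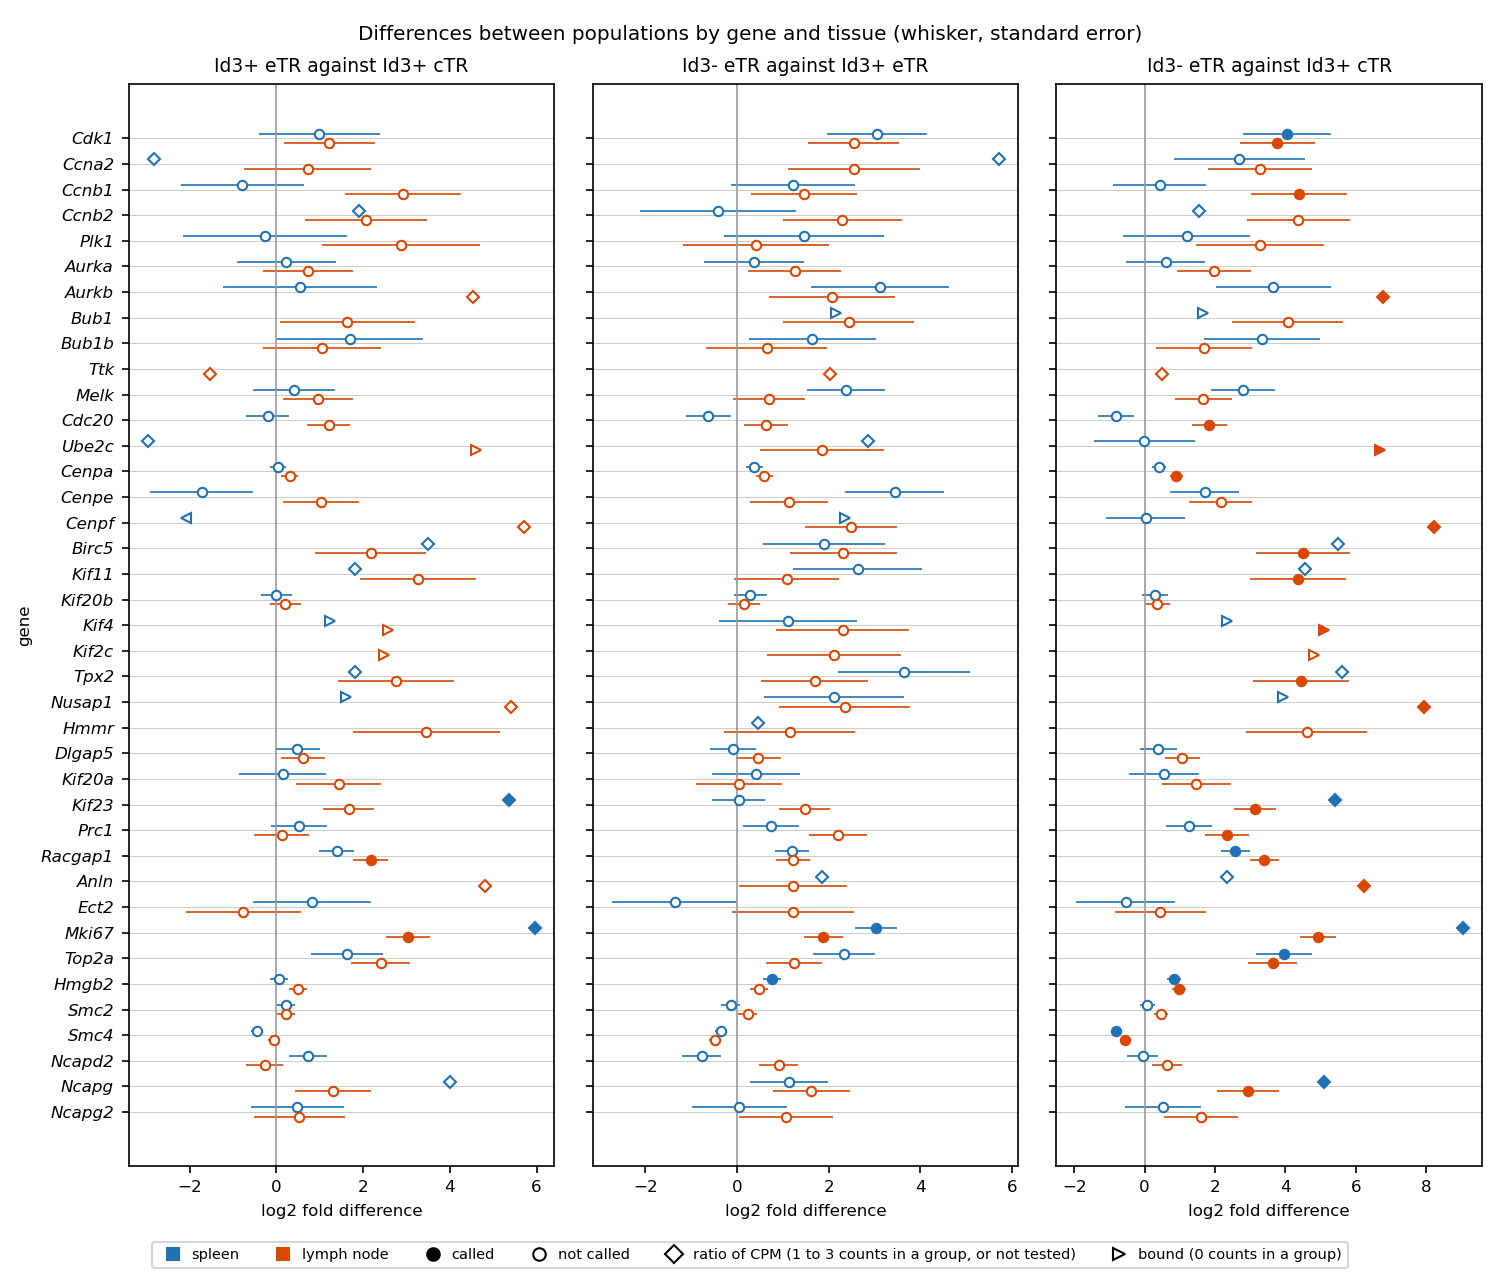
Log2 differences between populations for each gene (y axis) in spleen (blue) and lymph node (orange), with whiskers for standard errors and filled symbols for called differences. Diamonds are plain CPM ratios where a group held 1 to 3 counts or the gene was not tested, and triangles are bounds against a group at 0; the right panel holds 20 filled lymph node symbols above 0 and 7 spleen ones.

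Cyclins and Cdk1 come first in mitotic entry. Cdk1, the mitotic kinase, was at 0, 0 and 3.08 CPM in spleen Id3+ cTR, 1.01, 2.85 and 1.94 CPM in Id3+ eTR, then 28.8, 15.5 and 4.52 CPM in Id3- eTR. In lymph node it was at 3.41, 4.96 and 0 CPM, 16.2, 2.32 and 1.73 CPM, and 35.4, 34.3 and 46.7 CPM in the same populations. Every Id3- eTR library lay above every Id3+ library of its tissue. Cdk1 rose from Id3+ cTR to Id3- eTR by 4.05 ± 1.25 (log2, SE) in spleen (adjusted p 0.0427, and 0.0796 with mouse as a block). The lymph node rise was 3.77 ± 1.07 (adjusted p 0.0265). Ccnb1, cyclin B1, rose in lymph node from 1.89, 0 and 1.06 CPM to 20.4, 15.7 and 27.1 CPM (adjusted p 0.0444), a call that each single omission of a library ended. Ccnb2, cyclin B2, was at 9.84, 0 and 0 CPM in lymph node Id3+ cTR and at 111, 31.8 and 59.2 CPM in Id3- eTR, without overlap, at an adjusted p of 0.0589 and of 0.0251 with mouse as a block. In spleen Id3- eTR, Ccnb2 was at 4.32, 0 and 0 CPM. Ccna2, cyclin A2, was at 71.9, 3.65 and 69.2 CPM in lymph node Id3- eTR and was called in no comparison. Its mouse 86 library lay below the Id3+ cTR library of mouse 84 (12.5 CPM).

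Among 7 mitotic kinases and checkpoint genes, 1 was called. Aurkb, the catalytic subunit of the chromosomal passenger complex, was at 0.379, 0.331 and 0 CPM in lymph node Id3+ cTR (2 counts in all) and at 17.3, 15.7 and 43.1 CPM in Id3- eTR. It rose 109-fold, with a 95% counting interval of 29.8 to 907 (adjusted p 0.0295). Bub1, a checkpoint kinase at kinetochores, was at 2.27, 0 and 0 CPM and at 14.9, 10.2 and 14.3 CPM in the same groups, which did not overlap (adjusted p 0.120, and 0.0456 with mouse as a block). Plk1, the Polo-like kinase, was at 0.379, 0 and 3.2 CPM in lymph node Id3+ cTR and at 18.9, 0.731 and 16.4 CPM in Id3- eTR, and these overlapped (adjusted p 0.288). Aurka, the kinase of spindle poles, was at 5.30, 18.2 and 8.52 CPM in lymph node Id3+ cTR and 49.1, 23.0 and 54.9 CPM in Id3- eTR, again without overlap (adjusted p 0.260). Melk, a kinase of the cell cycle, was in spleen at 9.10, 0.4 and 1.23 CPM in Id3+ cTR and at 13.0, 37.2 and 20.2 CPM in Id3- eTR (adjusted p 0.0568, and 0.0318 with mouse as a block). Bub1b, the checkpoint protein BubR1, was called in no comparison, and Ttk, the checkpoint kinase Mps1, held 39 counts over lymph node Id3- eTR and at most 29 over any other group.

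Cdc20, which activates the APC/C, was called in lymph node alone. Spleen levels were 12.4, 11.6 and 11.7 CPM in Id3+ cTR and 8.27, 8.48 and 3.48 CPM in Id3- eTR, a log2 difference of -0.82 ± 0.51 (adjusted p 0.350). Lymph node levels were 6.81, 6.94 and 7.46 CPM and 41.7, 19.7 and 14.6 CPM, and Cdc20 rose there by 1.83 ± 0.50 (adjusted p 0.0206). Leaving out single libraries ended this call for 4 of 6. They were each Id3+ cTR library (adjusted p 0.0617 to 0.0691) and Id3- eTR of mouse 84 (0.139). The groups overlapped in neither tissue, and Id3- eTR was below Id3+ cTR in all 3 mice in spleen and above it in all 3 in lymph node. The test of the difference between the tissues gave 2.65 ± 0.71 on the log2 scale, with an unadjusted p of 0.00165 and an adjusted p of 0.332, so it was not called. Ube2c, the ubiquitin-conjugating enzyme of the APC/C, had 0 counts in lymph node Id3+ cTR and 45.2, 6.58 and 57.4 CPM in Id3- eTR, at least 103-fold higher (adjusted p 0.0149). Its spleen levels stayed at or under 4.0 CPM in all 9 libraries. Ube2c shares 22.8% of its exon length with Tnnc2 on the opposite strand.

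Of the centromere and passenger genes, 3 of 4 rose in lymph node, while in spleen their adjusted p-values were 0.121 or more. Cenpa, the centromeric histone H3 variant, was at 101, 63.8 and 73.1 CPM in lymph node Id3+ cTR and at 152, 136 and 155 CPM in Id3- eTR. It rose by 0.90 ± 0.19 on the log2 scale (adjusted p 0.00325), a small step on a high base. Cenpf, a kinetochore protein made late in the cycle, was at 0, 0.331 and 0 CPM in lymph node Id3+ cTR, 6.69, 6.96 and 5.19 CPM in Id3+ eTR, then 57.0, 16.8 and 32.8 CPM in Id3- eTR. Those 3 groups did not overlap. From the 1 count in Id3+ cTR, Cenpf rose 297-fold to Id3- eTR, with a counting interval of 52.8 to 11766 (adjusted p 0.00234). Birc5, survivin, rose from 8.33, 0 and 0 CPM to 79.0, 33.2 and 73.4 CPM in lymph node (adjusted p 0.0339). Cenpe, a kinetochore kinesin, was at 22.7, 2.98 and 6.04 CPM and at 48.3, 28.1 and 64.9 CPM in lymph node (adjusted p 0.132, and 0.0314 with mouse as a block).

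Motors and spindle proteins divided into 2 kinds. Kif20b and Dlgap5, a microtubule-associated protein of the kinetochore fibre, were measured in every library, at 41.2 to 127 CPM and 11.7 to 71.3 CPM, and were called in no comparison. The other 6 were at 5.68 CPM or less in every Id3+ cTR library. In lymph node Id3- eTR, Kif11, the kinesin that separates spindle poles, reached 70.0, 6.21 and 46.3 CPM, and it rose by 4.35 ± 1.36 (adjusted p 0.0451). That call was lost with limma-voom (adjusted p 0.134), without the filter (0.0505) and with only the groups compared (0.0599). Leaving out single libraries ended it for 4 of 6 libraries. Tpx2, a spindle assembly factor that activates Aurora A, rose from 1.89, 0 and 1.77 CPM to 46.0, 9.13 and 26.7 CPM (adjusted p 0.0407). Its call was lost with limma-voom (adjusted p 0.0708) and for 5 of 6 libraries left out singly. Kif4, a chromosome-bound kinesin, had 0 counts in lymph node Id3+ cTR and 14.9, 5.48 and 16.0 CPM in Id3- eTR, at least 34.3-fold higher (adjusted p 0.0329, and 0.0527 with mouse as a block). Nusap1, which bundles spindle microtubules, was at 33.0, 0.365 and 52.8 CPM there, from 1 count in Id3+ cTR (adjusted p 0.0281, and 0.0509 with mouse as a block), and its mouse 86 library barely exceeded the Id3+ cTR maximum of 0.355 CPM. Single omissions ended the calls of Kif4 and Nusap1 for 5 of 6 libraries each, and limma-voom ended that of Nusap1 (adjusted p 0.303). Kif2c, a microtubule-depolymerizing kinesin of the centromere, had 0 counts in all 9 spleen libraries and in lymph node Id3+ cTR, against 10.2, 2.92 and 16.8 CPM in lymph node Id3- eTR (adjusted p 0.0551). Hmmr, a spindle pole protein, was at 38.5, 5.85 and 25.7 CPM there (adjusted p 0.101).

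Of 6 central spindle and cytokinesis genes, 4 rose in lymph node and 2 in spleen. Racgap1, the GTPase-activating subunit of centralspindlin, was in spleen at 16.3, 8.39 and 14.8 CPM in Id3+ cTR, at 41.9, 20.3 and 38.9 CPM in the Id3+ effector cells and at 59.7, 80.5 and 91.4 CPM in the Id3- ones. In lymph node the values were 7.19, 8.60 and 11.7 CPM, 63.5, 20.1 and 41.9 CPM, and 115, 72.0 and 106 CPM. No 2 populations of a tissue overlapped. Racgap1 rose from Id3+ cTR to Id3- eTR in both tissues, by 2.58 ± 0.41 (adjusted p 0.000357, spleen) and 3.40 ± 0.41 (adjusted p 2.34e-05, lymph node).

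Kif23, the kinesin partner of Racgap1 in centralspindlin, was at 0.650, 0 and 0 CPM in spleen Id3+ cTR, a single count. It stood at 7.04, 8.14 and 6.61 CPM in spleen Id3+ eTR and at 13.0, 5.18 and 4.17 CPM in Id3- eTR, which overlapped each other. The ratio of spleen Id3- eTR to Id3+ cTR was 42.9, with a counting interval of 7.41 to 1724 (adjusted p 0.00178). Lymph node Kif23 was at 7.19, 2.31 and 3.91 CPM in Id3+ cTR, 15.8, 20.9 and 6.23 CPM in Id3+ eTR, then 27.9, 35.1 and 56.0 CPM in Id3- eTR, and it rose by 3.14 ± 0.60 between the outer 2 (adjusted p 0.00179). Prc1, which crosslinks central spindle microtubules, rose in lymph node from 21.6, 13.9 and 12.8 CPM to 119, 47.1 and 76.3 CPM (adjusted p 0.0202). Anln, anillin of the contractile ring, rose there from 1 count to 5.11, 1.83 and 19.2 CPM (adjusted p 0.0247). Ect2, the activator of RhoA at the cleavage site, was at 37.3, 0 and 3.21 CPM in lymph node Id3- eTR, and neither it nor Kif20a, a kinesin of the midzone, was called anywhere.

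Of 8 chromosome structure genes, 4 rose and Smc4 fell in each tissue. Mki67, the Ki-67 protein that coats mitotic chromosomes, was at 0.650, 0 and 0 CPM in spleen Id3+ cTR, 10.7, 10.6 and 11.7 CPM in Id3+ eTR, then 129, 54.6 and 86.2 CPM in Id3- eTR. In lymph node it was at 5.68, 7.28 and 2.13 CPM, 73.1, 22.8 and 30.1 CPM, and 201, 111 and 151 CPM. As for Racgap1, no populations of a tissue overlapped, and Mki67 was the only member called in all 6 population comparisons. From Id3+ cTR to Id3- eTR it rose by 4.92 ± 0.51 in lymph node (adjusted p 4.46e-06), and in spleen the ratio was 526 from 1 count, with a counting interval of 94.1 to 20810.1 (adjusted p 2.52e-06).

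Top2a, the topoisomerase that untangles sister chromatids, was at 0.650, 4.0 and 3.70 CPM in spleen Id3+ cTR and at 46.8, 24.5 and 66.7 CPM in Id3- eTR, a rise of 3.96 ± 0.79 (adjusted p 0.00255). In lymph node it rose by 3.64 ± 0.70, from 11, 5.29 and 4.26 CPM to 128, 30.7 and 98.4 CPM (adjusted p 0.00182). Hmgb2, a DNA-bending chromatin protein, changed little but evenly: 20.8, 20.4 and 20.3 CPM in spleen Id3+ cTR against 33.5, 34.8 and 41.7 CPM in Id3- eTR, and 20.4, 21.2 and 22.7 CPM against 44.0, 38.7 and 43.5 CPM in lymph node. Its rises were 0.84 ± 0.20 (adjusted p 0.0107) and 0.97 ± 0.20 (adjusted p 0.00300).

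The condensin subunits moved in different directions. Smc4 was at 1574, 1126 and 1339.9 CPM in spleen Id3+ cTR and at 722, 854 and 740 CPM in Id3- eTR, and in lymph node at 1092, 1013 and 1093 CPM and at 726, 700 and 764 CPM. No Id3- eTR library reached any Id3+ cTR library. In spleen Smc4 fell by 0.80 ± 0.13 (adjusted p 0.000544). In lymph node it fell by 0.55 ± 0.13 (adjusted p 0.0112). Ncapg, a subunit of condensin I alone, rose in lymph node from 9.84, 1.98 and 1.06 CPM to 56.6, 16.8 and 25.3 CPM (adjusted p 0.0388). In spleen it stood at 2 counts in Id3+ cTR and at 10.1, 11.3 and 14.6 CPM in Id3- eTR, a ratio of 34.2 with a counting interval of 9.21 to 287 (adjusted p 0.0142). Smc2, the ATPase partner of Smc4, was at 68.8 to 151 CPM in all libraries and was not called, nor were Ncapd2 of condensin I or Ncapg2 of condensin II.

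**Figure D5:**
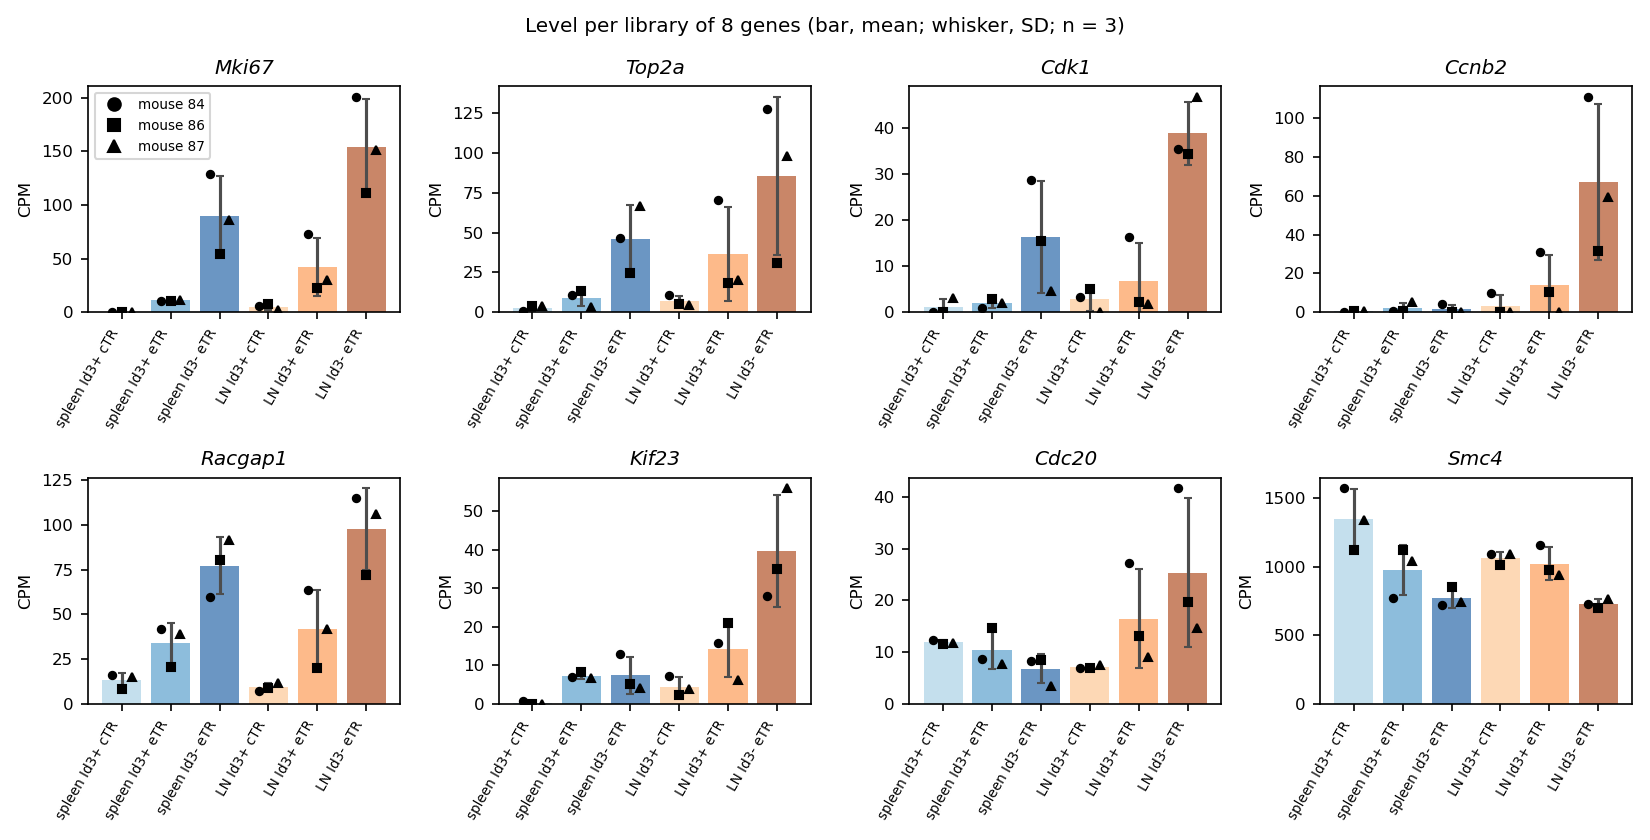
Levels in CPM (y axis) of 8 genes in the 6 groups (x axis; LN, lymph node), with 1 point per library by mouse, bars for means and whiskers for SD (n = 3). Mki67 and Racgap1 step up from Id3+ cTR to Id3+ eTR to Id3- eTR in both tissues, Cdc20 is lower in Id3- eTR than in Id3+ cTR in spleen and higher in lymph node, and Smc4 has its lowest mean in the Id3- eTR of each tissue.

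Fewer members separated Id3+ eTR than Id3- eTR from Id3+ cTR, and so did fewer of all tested genes. From Id3+ cTR to Id3+ eTR, Kif23 and Mki67 rose in spleen (2.93% of tested genes were called higher, 1.39% lower) and Racgap1 and Mki67 in lymph node (4.2% higher, 1.46% lower). Kif23 in spleen had a ratio of 41.0 from 1 count, with an interval of 7.07 to 1646 (adjusted p 0.00621), and Mki67 one of 62.2, with an interval of 10.9 to 2483 (adjusted p 0.00376). Without the 3 libraries set apart above, adjusted p-values were 0.158 and 0.194, and the 1 Id3+ cTR library left held 0 counts of both genes. In lymph node, Racgap1 rose by 2.18 ± 0.41 (adjusted p 0.00332) and Mki67 by 3.03 ± 0.50 (adjusted p 0.00117). With mouse as a block, Kif11 (adjusted p 0.0164) and Cenpf (0.0422) were called too in lymph node, which makes 4, and Racgap1 was called in spleen (0.0398 against 0.0653). Groups did not overlap for 3 members higher and 2 lower in spleen (10.8% and 9.07% of tested genes) and for 7 higher in lymph node (13.5%). The median log2 differences were 0.48 in spleen and 1.54 in lymph node.

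Between the effector populations, Mki67 was higher in Id3- eTR in both tissues, by 3.03 ± 0.47 (spleen, adjusted p 0.000983) and by 1.89 ± 0.43 (lymph node, adjusted p 0.0224). Hmgb2 was also higher in spleen, by 0.77 ± 0.20 (adjusted p 0.0427, and 0.0601 with mouse as a block). These were the only members called, 2 in spleen (1.53% of tested genes were called higher, 1.75% lower) and 1 in lymph node (1.45% higher, 1.17% lower). With mouse as a block Racgap1 was called in both tissues as well (adjusted p 0.0379 in spleen and 0.0400 in lymph node), so that lymph node had 2 members called. Leaving out single libraries ended the Hmgb2 call each time and the lymph node Mki67 call for 4 of 6 libraries (Id3+ eTR of mice 86 and 87, Id3- eTR of mice 84 and 87), with adjusted p-values up to 0.319 over all alternatives for the former and 0.130 for the latter. Medians over the tested members were 1.16 in spleen and 1.24 in lymph node. Groups did not overlap for 10 members higher and 0 lower in spleen (9.79% and 8.76%) and for 13 higher and 1 lower in lymph node (11.3% and 10.7%).

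Lymph node and spleen were compared within each population. None of the 38 tested members was called by edgeR in any of the 3 populations, where 0.00804% of tested genes were called higher in lymph node for Id3+ cTR, 0.112% for Id3+ eTR and 0.145% for Id3- eTR, and 0%, 0.177% and 0.161% lower. At an unadjusted p under 0.05 there were 4, 14 and 15 members, beside 7.77%, 11.9% and 7.91% of tested genes. DESeq2 called 0, 3 and 3: Cenpe, Cenpf and Mki67 in Id3+ eTR, and Cdc20, Cenpf and Kif23 in Id3- eTR. limma-voom called Kif23 alone, in Id3- eTR. The levels in Id3- eTR did not overlap for 20 of 39 members, all higher in lymph node (7.8% of tested genes, with 7.1% lower), while for Id3+ eTR that held for 9, also all higher (7.14%, with 6.63% lower), and for Id3+ cTR for 4 higher and 2 lower (7.18% and 7.38%).

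The gap of Ccnb2 in Id3- eTR was far wider than the median over the members given below. Its levels were 111, 31.8 and 59.2 CPM in lymph node and 4.32, 0 and 0 CPM in spleen. The log2 difference was 5.44 ± 1.58 (adjusted p 0.220), and all 12 spleen counts came from mouse 84. Kif23 in Id3- eTR differed by 2.40 ± 0.58 (adjusted p 0.111) and Cenpf by 4.24 ± 1.12 (adjusted p 0.181), each higher in lymph node in every mouse. The medians over the tested members were 0.25 for Id3+ cTR, 1.73 for Id3+ eTR and 1.55 for the Id3- cells. The 3 tests of whether a population difference itself differed between tissues called no member (edgeR; unadjusted p under 0.05 for 4, 4 and 1 members, beside 6.88%, 9.48% and 6.03% of tested genes), where 0.0241% of tested genes were called lower in the first and 0% otherwise. DESeq2 called 1, Cenpf, for the difference between Id3- eTR and Id3+ cTR, and no alternative gave another.

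Other genes of the same machinery were taken from lists, whose counts stand beside 7.17% of all tested genes called higher and 5.09% lower in spleen, and 8.26% and 4.68% in lymph node. Of 40 further spindle checkpoint and kinetochore genes, 3 rose from Id3+ cTR to Id3- eTR in spleen and 6 in lymph node. Zwint, which anchors the outer kinetochore, rose by 0.46 ± 0.11 in both tissues (adjusted p 0.00987 in spleen and 0.00891 in lymph node), and Cenpl, of the inner kinetochore, by 1.21 ± 0.37 and 1.39 ± 0.36. Of 41 other spindle and cytokinesis genes, 3 rose in spleen and 5 in lymph node, among them Kif18a, which dampens chromosome movement, by 2.26 ± 0.53 and 1.70 ± 0.48. Wee1, the kinase that restrains Cdk1, rose in spleen by 4.22 ± 0.84 (adjusted p 0.00248), and its lymph node difference was 1.42 ± 0.69 (adjusted p 0.213). In spleen both counts are near the share over all genes. 

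Of 16 cohesin, separase and securin genes, 2 were called, both in lymph node: Wapl, which releases cohesin, rose by 0.36 ± 0.11 and Pds5b, its partner, fell by 0.63 ± 0.19. Of 18 APC/C genes only the subunit Anapc5 was called, and it fell by 0.77 ± 0.12 (spleen, adjusted p 0.000409) and by 0.49 ± 0.12 (lymph node, adjusted p 0.0143). The calls of both lists are near the shares over all tested genes given above.

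Regulators of the cycle outside mitosis were read in the same comparison and stand beside the same shares. Among 24 genes of the DREAM, Myb and E2F families, 1 was called, Rbl2, the pocket protein p130 of the DREAM complex. Its levels ran from 152 to 162 CPM in spleen Id3+ cTR, 209 to 264 CPM in Id3+ eTR, then 307 to 365 CPM in Id3- eTR, and in lymph node from 127 to 171, 194 to 224 and 338 to 395 CPM. Rbl2 rose in all 6 population comparisons, by 1.06 ± 0.12 in spleen and 1.36 ± 0.12 in lymph node between the outer populations (adjusted p 1.69e-05 and 9.88e-07). Of 10 G1 cyclins and kinases, the D-type cyclins Ccnd2 and Ccnd3 fell in spleen (by 0.55 ± 0.07 and 0.52 ± 0.12) and Ccnd3 in lymph node (by 0.37 ± 0.12). Of 16 inhibitor and quiescence genes, 4 rose in each tissue, and 3 fell in spleen and 2 in lymph node. Gadd45b, a stress-inducible growth arrest gene, rose by 1.86 ± 0.19 in spleen and 1.44 ± 0.18 in lymph node. Foxp1, a quiescence factor of T cells, fell by 1.17 ± 0.10 in spleen and 0.77 ± 0.09 in lymph node. Of 30 DNA replication genes, 4 rose in spleen and 6 in lymph node. Tyms, thymidylate synthase, rose in both (2.02 ± 0.44 and 1.57 ± 0.42), and Mcm6, of the replicative helicase, rose in lymph node by 1.05 ± 0.18.

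Of the 8 TR-defining genes, Ikzf2 and Ctla4 were higher in Id3- eTR than in Id3+ cTR in spleen (by 0.84 ± 0.14 and 0.52 ± 0.10) and in lymph node (by 0.98 ± 0.14 and 0.96 ± 0.10), Tnfrsf18 was higher in lymph node and Il2ra fell by 0.85 ± 0.16 in spleen. Markers of other cells moved with some of these groups. The summed level of 10 myeloid genes was 137 to 264 CPM in spleen Id3+ cTR and 234 to 299 CPM in Id3- eTR, and 141 to 167 CPM against 327 to 365 CPM in lymph node. Cd68, Fcer1g and Tyrobp were called higher in spleen and Cst3, Fcer1g, Spi1 and Tyrobp in lymph node. Csf3r was at 0 in every library, and Csf1r and Cd14 in all lymph node libraries of both Id3- eTR and Id3+ cTR. Itgam and Cd14 were also at 0 in all spleen Id3+ cTR libraries. Summed levels of 8 CD8 T and NK genes were 83.9 to 174 CPM and 175 to 218 CPM in spleen, and 86.3 to 132 CPM and 185 to 231 CPM in lymph node, with Nkg7 higher in both tissues, Klrk1 higher in lymph node and Ncr1 at 0 throughout. Their part in the members' differences was not tested.

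The 10 erythroid genes, of a lineage that divides in mouse spleen, summed to 265 to 402 CPM in spleen Id3+ cTR and 37.8 to 210 CPM in Id3- eTR, with Alas2 lower, and to 108 to 120 CPM and 94.7 to 115 CPM in lymph node. In all lymph node Id3- eTR libraries 7 of the 10 were at 0, the globin genes Hba-a1, Hba-a2, Hbb-bs and Hbb-bt included. In all lymph node Id3+ cTR libraries 7 were at 0 too. The part of erythroid cells in the members' differences was not tested. The 8 B cell genes summed to 55.9 to 231 CPM over all libraries, with Cd79a lower in spleen Id3- eTR, and Pax5 and Ebf1 were at 0 in lymph node Id3- eTR. Of 9 germinal centre and plasma cell genes, Mef2b and Tnfrsf17 were at 0 in every library, Fas was lower in the Id3- eTR of both tissues and S1pr2 higher in that of lymph node.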

How the data were processed

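RNA from 500 sorted cells was amplified with SMART-Seq v4 and made into Nextera XT libraries, per the labels' protocols, a chemistry that does not mark strand. Alignment tools (TopHat, Bowtie), the counter HTSeq 0.4.1 and the utilities SAMtools, Picard and FastQC are listed in the submitters' processing notes. The build used for alignment was not given in these sources. The authors deposited raw counts per gene for 18 libraries and a table of normalized values, a signal in which 99.9856% of values, over 13883 matched symbols, were the count times 1 factor per library within 0.1%. A reference table of gene names gave symbols for 32919 gene IDs, and the 5072 IDs without one held 0.891% of counts. Exon lengths and overlaps are from a GENCODE mouse annotation.

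The counts were tested with edgeR 4.0.16 (R 4.3.3): filterByExpr with a minimum count of 10, TMM scaling, 6 group terms over all 18 libraries (12 residual degrees of freedom), the robust quasi-likelihood test and Benjamini-Hochberg adjustment over 12445 genes in each of 12 contrasts. The common coefficient of variation was 0.294. Counts of 0 in a group were set to 3 over the group for bounds, and 95% intervals of ratios from 1 to 3 counts are exact and cover counting error only. The code was tested on simulated data. Alternatives were DESeq2 1.42.0, limma-voom (limma 3.58.1), DESeq2-type scaling, no filter, only the groups compared, mouse as a block, and libraries left out.

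Libraries with the same number came from the same mouse, which pairs them. Over all tested genes, the median correlation of their deviations from group means was 0.0188, against -0.00673 between mice. This value is not for the members alone, so it does not show that pairing is negligible for them. Mouse 84 led for 21 to 33 members in the lymph node groups and for 23 in spleen Id3- eTR. Mouse 86 led for 14 in spleen Id3+ cTR and 13 in spleen Id3+ eTR. The main model left the pairing out. Mouse as a block changed some members' calls, among them Cdk1 (lost) and Melk (gained) in spleen Id3- eTR against Id3+ cTR. All 39 members are named. From each further list, up to 2 genes called in the most population comparisons are named, and from the marker lists the called genes and those at 0 throughout. The members and lists were chosen with earlier results of these data known. Exons of Ube2c, Kif4, Ncapg, Ccna2, Prc1 and Kif20a overlap a gene on the opposite strand over 11.1% to 29.3% of their length. Smaller overlaps on that strand are those of Plk1 (7.09%), Nusap1 (4.24%) and Cdc20 (2.84%). Ncapd2 (3.78%) and Top2a (1.35%) overlap genes on the same strand. Ccnb1, Ccnb2 and Kif4 have pseudogenes by name. The counts of all these genes are less certain. Cdkn2d matched more than 1 ID and was left out. The level of 1 B cell marker is not reported here.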

Additional observations from a re-analysis of the deposited data

How the results depend on the processing

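No called difference changed sign under any alternative that was run. Counts of members called higher moved as follows. With limma-voom there were 3 in spleen Id3- eTR against Id3+ cTR, 0 in spleen Id3+ eTR against Id3+ cTR, 1 in lymph node Id3+ eTR against Id3+ cTR, 8 in lymph node Id3- eTR against Id3+ eTR, and 1 between tissues in Id3- eTR. With DESeq2 the spleen counts were 4 for Id3+ eTR against Id3+ cTR and 6 for Id3- eTR against Id3+ eTR. The lymph node counts were 5 and 4, those between tissues 3 in Id3+ eTR and 3 in Id3- eTR, and 1 member differed in the test between tissues of Id3- eTR against Id3+ cTR. Without the filter, 1 was higher in spleen Id3- eTR against Id3+ eTR and 4 in lymph node Id3+ eTR against Id3+ cTR. With only the groups compared there were 1 for each spleen comparison with Id3+ eTR and 2 for lymph node Id3- eTR against Id3+ eTR. With mouse as a replicate block there were 4 in lymph node Id3+ eTR against Id3+ cTR and 2 in Id3- eTR against Id3+ eTR. The block changed no member's call beyond those given in the report and Kif11 in spleen Id3- eTR against Id3+ cTR (adjusted p 0.0366, edgeR). Without the 3 libraries there were 3, 0 and 1 in spleen, where the first 2 counts rest on 1 Id3+ cTR library. Members called lower numbered 1 (no filter) and 2 (DESeq2) in spleen Id3+ eTR against Id3+ cTR, 1 without the 3 libraries in spleen Id3- eTR against Id3+ eTR, and 1 without the filter, with DESeq2 or with only the groups compared in lymph node Id3- eTR against Id3+ eTR. Leaving out single libraries gave 7 to 19 higher in lymph node Id3- eTR against Id3+ cTR, 0 to 2 against Id3+ eTR, 2 to 4 in Id3+ eTR against Id3+ cTR, and in the same 3 comparisons of spleen 6 to 7, 1 to 1 and 2 to 3, with 0 to 1 lower in both spleen comparisons with Id3+ eTR. The spleen Id3+ cTR sum without Smc4 had a mean of 370.2 CPM, 361 CPM without TMM scaling and 384 in the authors' normalized units. The causes were not tested. Low counts limit the precision: 14 members had at most 3 counts over spleen Id3+ cTR and 7 over lymph node Id3+ cTR.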
